A study of Homo sapiens with 6 samples.

Results

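E-cadherin and the genes of the epithelial tight junction were followed in cells of CAOV2, a line from a human ovarian cancer, after silencing of YAP. The set holds 10 genes named by the rule that selected them, and all 10 were among the 17211 genes of the deposited table and among the 17200 tested. They are CDH1, the claudin genes CLDN1, CLDN3, CLDN4 and CLDN7, OCLN, F11R, TJP1, EPCAM and ST14. The table holds 3 siYAP libraries, from cells given an siRNA reagent against YAP, and 3 siNT libraries, from cells given a non-targeting siRNA. Cells of both groups received 100 pmol of siRNA with 6 µL of a lipid reagent for 2 days and were harvested on day 3. The reagent against YAP and the control siRNA are different products, so an effect of losing YAP cannot be told apart from other effects of either reagent. The labels name CAOV2 as a cell line and also call the cells primary, and they do not say whether the biological replicates were separate passages, so each p-value reflects only how these libraries vary, which may be technical.

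Epithelial cells hold to their neighbours through adherens junctions, in which the extracellular part of E-cadherin binds E-cadherin on the next cell and its tail binds catenins that lead to actin. Above them lie tight junctions, in which claudins, occludin and JAM-A seal the space between cells and scaffold proteins such as ZO-1 anchor them. YAP is a transcriptional co-activator that works through TEAD factors and is restrained by the Hippo kinases, and cell contact through adherens junctions is a known input to that restraint. EPCAM and ST14 are not structural parts of either junction: EPCAM is an epithelial adhesion protein that binds claudin-7, and ST14 encodes matriptase, a membrane serine protease of epithelia.

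Values are normalized read counts (reads divided by a size factor of the library), each fold change was taken on log2(value + 1), which understates that of low genes, and 25478595 to 31790340 reads were recovered per library. The targeted gene YAP1 fell to 5.00% of its siNT level, with 278, 327 and 294 normalized counts in the siYAP libraries and 6221, 5801 and 5955 in the siNT libraries. The epithelial keratins were abundant in both groups, with KRT8 at 33087 ± 1778 normalized counts in siYAP and 35206 ± 1349 in siNT (SD, n = 3). The ovarian markers PAX8 (17.1 ± 4.26 in siYAP and 28.8 ± 13.9 in siNT) and MUC16 (14.2 ± 4.28 in siYAP and 11.9 ± 3.67 in siNT) were near the floor. Of 7 measured epithelial and ovarian markers, 4 fell and none rose, with KRT7 at -0.97 and KRT18 at -0.68 on the log2 scale. The 5 measured fibroblast markers of 7 summed to between 13064 and 13559 normalized counts in siYAP and between 4592 and 5331 in siNT, nearly all from LUM and COL3A1. COL1A2 was at 1.25 ± 0.487 in siYAP and 12.6 ± 2.69 in siNT (SD, n = 3). The 4 measured immune markers of 7 summed to between 143 and 160.4 in siYAP and between 198 and 214 in siNT, with CD14 called higher (log2 0.45) and CD79A, LYZ and CD68 called lower. Only ESAM of 6 endothelial markers was measured (1296 ± 39.2 in siYAP and 1774 ± 99.9 in siNT). The 3 measured mesothelial markers of 5 summed to between 17.1 and 27.6 in siYAP and between 62.0 and 81.0 in siNT. Most of that sum was CALB2, which was called lower (12.3 ± 6.77 in siYAP and 62.6 ± 10.3 in siNT). MSLN lay higher in siYAP (6.96 ± 2.23 in siYAP and 2.63 ± 1.38 in siNT) and, like UPK3B, was not called. The part of these markers in the results on junction genes was not tested. In bulk RNA, fewer cells expressing a gene and less RNA of it per cell cannot be told apart.

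Of the 10 genes, 7 were higher in siYAP, 1 was lower and 2 were not called (limma with Benjamini-Hochberg adjustment over all 17200 genes, called at an adjusted p under 0.05). Across all genes tested, 56.8% were called, 28.6% higher and 28.1% lower. The 7 higher genes of 10 exceed that share and the 1 lower gene does not. The 10 genes were chosen with earlier results of these data known, so the excess says nothing about junction genes in general. ST14, among the 7, lost its call in DESeq2 (adjusted p = 0.119). The shares of 28.6% and 28.1% also apply to each count of marker or companion genes given here, and no list was tested as a set. Of all called genes 50.4% were higher, and 62.0% when libraries were scaled to equal totals, a scaling that moved the median of all genes to a log2 of 0.09. The median log2 fold change of the 10 genes was 0.59, against 0.0036 for all genes tested. In 7 genes every siYAP library lay above every siNT library, a state found in 30.9% of all genes, and in 1 gene every siYAP library lay below, as in 30.6% of all genes.

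**Figure D1:**
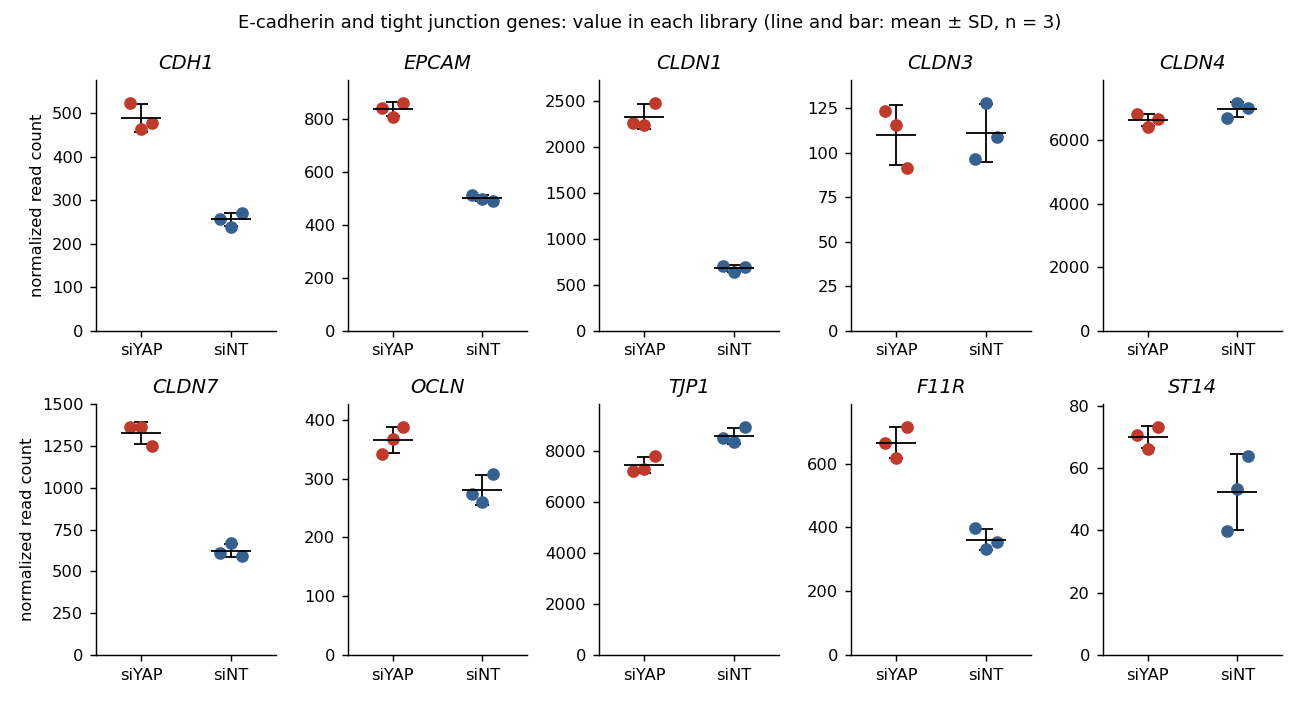
Normalized read count (y axis, from 0, a scale of its own for each gene) of the 10 genes in the siYAP libraries (left in each panel) and the siNT libraries (right), with points for libraries and a line and bar for the mean ± SD (n = 3). The siYAP points lie above the siNT points for CDH1, EPCAM, CLDN1, CLDN7, OCLN, F11R and ST14, below them for TJP1, and among them for CLDN3 and CLDN4.

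CDH1, the gene of E-cadherin (ENSG00000039068, GRCh38 chromosome 16, 68737225 to 68835548, plus strand), had 525, 463 and 477 normalized counts in the siYAP libraries and 257, 239 and 271 in the siNT libraries. The lowest siYAP library was well above the highest siNT library, and the means were 488 ± 32.3 in siYAP and 256 ± 15.6 in siNT (SD, n = 3). The log2 fold change was 0.93 ± 0.0820 (standard error), with an adjusted p of 2.38e-09 in limma. In the annotation CDH1 contains FTLP14, a processed pseudogene on the same strand, which had a mean of 13.3 normalized counts in siYAP and 6.60 in siNT.

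E-cadherin was a minor cadherin of these cells at the RNA level. Among 11 measured cadherin genes, CDH1 made up 1.34 ± 0.101% of the summed level per kb of annotated exon in siYAP and 1.86 ± 0.159% in siNT (SD, n = 3). CDH17, the liver-intestine cadherin, made up 81.2 ± 0.306% in siYAP and 66.3 ± 0.619% in siNT. CDH17 itself rose, to 18659 ± 337 normalized counts in siYAP against 5754 ± 264 in siNT (SD, n = 3; log2 1.70, limma adjusted p = 2.94e-18). The share of CDH1 was thus lower in siYAP although its own level was higher, and the exact permutation test on that share gave p = 0.1, the smallest value that 3 against 3 libraries allow. CDH6, a cadherin of kidney and ovarian tumours, rose by a log2 of 1.37 and CDH16, the kidney-specific cadherin, by 2.29. CDH2, the N-cadherin gene, was low in both groups, at 34.9 ± 9.02 in siYAP and 16.4 ± 3.79 in siNT (SD, n = 3; log2 1.04, limma adjusted p = 0.00208). CDH12 held the second-largest share, at 11.9 ± 0.196% in siYAP and 21.0 ± 0.451% in siNT, and its own level rose (log2 0.59). Of 10 other cadherins measured, of 14 sought, 6 rose, 1 fell (CDH24, log2 -0.23) and 3 were not called, with a median log2 fold change of 0.82. That count and median include CDH8, which was near the floor (6.02 ± 3.09 normalized counts in siYAP and 0.752 ± 0.656 in siNT).

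The partner genes of the adherens junction changed in both directions. Of 11 measured catenin, nectin and associated genes, 3 rose, 5 fell and 3 were not called, with a median log2 fold change of -0.09. CTNNB1, beta-catenin, differed by a log2 of 0.04 (limma, adjusted p = 0.349). Within each library the level of CDH1 per kb relative to CTNNB1 was 0.0802, 0.0698 and 0.0716 in siYAP and 0.0398, 0.0374 and 0.0424 in siNT, with every siYAP library above every siNT library (exact permutation p = 0.1, the smallest possible). VCL, vinculin, which links junctions to actin, fell (log2 -0.65), as did CTNNA1, alpha-catenin (log2 -0.22). CTNND1 (log2 -0.12) and JUP (log2 -0.16, groups overlapping) were also called lower, and no catenin gene of this list was called higher. CTNNB1, not called, had every siYAP library above every siNT library. Changes this small may depend on the scaling. Equal library totals moved the median of all genes to a log2 of 0.09, and the catenin calls were not examined on that scale. CAMSAP3, a protein that anchors microtubule minus ends at epithelial junctions, rose to 2408 ± 165 normalized counts in siYAP against 1160 ± 111 in siNT (SD, n = 3; log2 1.06). NECTIN3, an immunoglobulin-like adhesion receptor, rose by a log2 of 0.71. CTNNB1, CTNND1, JUP, CDH8, CDH12, CDH24 and, further on, HGF were named after their values were seen.

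The 4 claudins did not move together. CLDN1, a barrier-forming claudin (ENSG00000163347, GRCh38 chromosome 3, 190305701 to 190322475, minus strand), had 2260.1, 2232 and 2479.6 normalized counts in the siYAP libraries and 698, 634 and 696 in the siNT libraries. Every siYAP library held more than 3 times the count of any siNT library. Its means were 2324 ± 136 in siYAP and 676 ± 36.6 in siNT (SD, n = 3), the largest fold change of the 10 genes at a log2 of 1.78 ± 0.0582 (standard error; adjusted p = 2.35e-16 in limma). A log2 fold change at least as high was seen in 2.06% of all genes tested.

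CLDN7, which forms a complex with EPCAM (ENSG00000181885, GRCh38 chromosome 17, 7259903 to 7263983, minus strand), had 1363, 1364 and 1253 normalized counts in siYAP and 608, 667 and 593 in siNT. The groups were far apart, and the log2 fold change was 1.09 ± 0.0619 (standard error; adjusted p = 1.72e-12 in limma). It overlaps ELP5, an Elongator subunit gene on the opposite strand, at a mean of 1817 normalized counts in siYAP and 2011 in siNT (log2 -0.15). The kit was stranded but the strand setting of the counting is not given in the sources used here, so reads from the shared stretch cannot be told apart.

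CLDN4 and CLDN3, neighbours on chromosome 7 that encode the receptors of a clostridial enterotoxin, were not called. CLDN4 (ENSG00000189143, 73799542 to 73832693, plus strand) had 6836, 6434 and 6661 normalized counts in siYAP and 6718, 7192 and 7029 in siNT. The groups overlapped, and the log2 fold change of -0.07 had a 95% confidence interval of -0.16 to 0.02 (limma, adjusted p = 0.172). It crossed the threshold without siNT replicate 1 (log2 -0.10, limma adjusted p = 0.0412), and its sign turned with equal library totals (log2 0.0164). CLDN3 (ENSG00000165215, 73768997 to 73770270, minus strand) had 123, 115 and 91.3 normalized counts in siYAP and 96.3, 128 and 109 in siNT. Its log2 fold change of -0.02 had an interval of -0.31 to 0.28 (limma, adjusted p = 0.935), which holds changes in either direction, and its sign turned with upper-quartile factors (0.0026) and equal totals (0.0706).

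CLDN1 and CLDN7 rose while CLDN4 was not called, and CLDN4 took a smaller share of claudin transcripts in each siYAP library than in any siNT library. Per kb of annotated exon, CLDN4 made up 45.6 ± 0.917% of the summed level of 11 measured claudins in siYAP and 55.8 ± 0.836% in siNT (SD, n = 3). The share of CLDN1 was 20.5 ± 1.15% in siYAP and 6.94 ± 0.533% in siNT, and that of CLDN7 was 17.2 ± 0.882% in siYAP and 9.39 ± 0.401% in siNT. The ratio of CLDN1 to CLDN4 per kb within a library was 0.424, 0.445 and 0.478 in siYAP and 0.133, 0.113 and 0.127 in siNT. For each of these shares and for the ratio the exact permutation test gave p = 0.1, its smallest possible value. When the length of the principal transcript was used, the share of CLDN4 was 37.4% in siYAP and 42.9% in siNT and that of CLDN1 was 15.6% in siYAP and 4.97% in siNT.

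Of the 7 other claudins measured, of 20 sought, 2 rose, 4 fell and 1 was not called, with a median log2 fold change of -0.52. Over all genes 28.6% were higher and 28.1% lower, and 7 genes are too few to give the family a direction. CLDN12, a claudin without the usual PDZ-binding tail, fell to 767 ± 35.7 normalized counts in siYAP against 1778 ± 90.7 in siNT (SD, n = 3; log2 -1.21, limma adjusted p = 7.38e-14). CLDN15, a channel-forming claudin of the gut, fell by 0.67 on the log2 scale. CLDN2, which forms a cation channel, rose to 87.1 ± 1.92 in siYAP against 34.7 ± 10.9 in siNT (SD, n = 3; log2 1.35), and CLDN11 rose from a similarly low level (log2 0.82). The difference between these claudins and the 4 above was not tested.

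**Figure D2:**
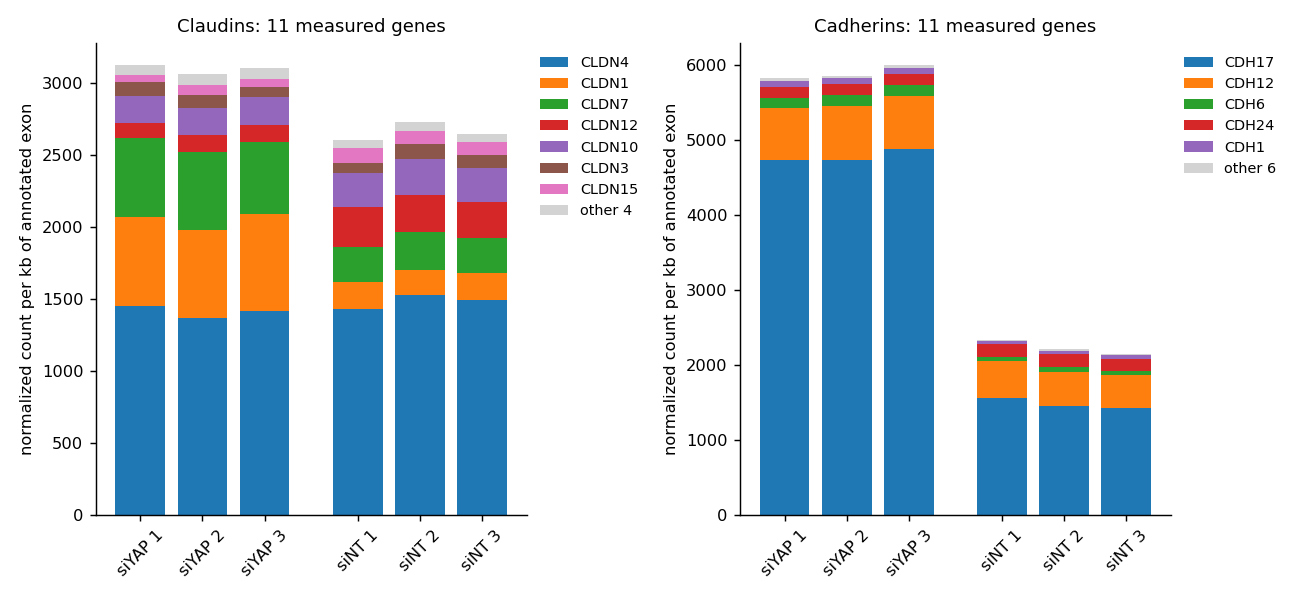
Level of each claudin (left panel) and cadherin (right panel) in each library, as normalized count per kb of annotated exon (y axis, stacked from 0), with the 3 siYAP libraries left of the 3 siNT libraries and the remaining genes in grey. CLDN1 and CLDN7 take more of the claudin bar in siYAP, and CDH17 fills most of the cadherin bar in both groups while CDH1 is a thin layer.

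The sequences before the claudin gene starts are shown because these genes are close relatives that responded differently. The windows are from RefSeq on GRCh38.p14, 250 bases before to 50 bases after a start, each read 5′ to 3′ on the strand of its gene. They lie at chr17:7262429-7262728 for CLDN7, chr3:190322397-190322696 for CLDN1, chr7:73830746-73831045 for CLDN4 and chr7:73770221-73770520 for CLDN3. Capitals mark CAGGTG or its reverse complement CACCTG, the E-box form bound by the SNAI and ZEB repressors, and TGANTCA, the AP-1 motif.

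CLDN7: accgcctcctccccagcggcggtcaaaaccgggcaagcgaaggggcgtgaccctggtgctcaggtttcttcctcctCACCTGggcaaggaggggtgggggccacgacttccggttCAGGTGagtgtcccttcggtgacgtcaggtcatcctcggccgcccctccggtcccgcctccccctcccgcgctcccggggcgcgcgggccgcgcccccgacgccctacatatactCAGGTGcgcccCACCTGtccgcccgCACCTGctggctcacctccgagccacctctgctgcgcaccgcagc

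CLDN1: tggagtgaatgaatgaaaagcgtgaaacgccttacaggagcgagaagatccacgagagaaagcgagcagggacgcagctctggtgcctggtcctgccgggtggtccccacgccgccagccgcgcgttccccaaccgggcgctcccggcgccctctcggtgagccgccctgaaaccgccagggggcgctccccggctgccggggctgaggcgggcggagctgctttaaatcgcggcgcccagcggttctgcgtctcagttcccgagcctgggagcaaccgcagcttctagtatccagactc

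CLDN4: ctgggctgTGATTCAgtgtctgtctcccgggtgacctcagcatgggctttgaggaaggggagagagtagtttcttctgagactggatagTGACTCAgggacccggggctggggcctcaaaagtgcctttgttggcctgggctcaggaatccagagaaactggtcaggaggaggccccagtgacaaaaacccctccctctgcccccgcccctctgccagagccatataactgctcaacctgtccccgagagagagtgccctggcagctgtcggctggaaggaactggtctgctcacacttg

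CLDN3: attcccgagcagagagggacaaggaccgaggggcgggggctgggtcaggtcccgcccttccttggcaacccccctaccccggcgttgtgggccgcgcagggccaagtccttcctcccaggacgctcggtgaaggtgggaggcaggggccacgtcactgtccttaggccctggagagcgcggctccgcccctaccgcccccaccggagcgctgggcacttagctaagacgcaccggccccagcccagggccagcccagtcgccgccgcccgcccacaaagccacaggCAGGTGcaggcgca

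The CLDN7 window held 5 matches to the E-box, whereas those of CLDN1 and CLDN4 held none and that of CLDN3 held 1. Outside the claudins, the windows of OCLN, which rose, held 1 and 2 matches. Among the windows of TJP1, which fell, 1 held 1 match and the others held none. At least 1 match was present in 20.6% of the 35116 windows in the table and at least 5 in 0.0940%. A second CLDN7 window, around an upstream start, held none. CLDN4 held 2 AP-1 matches, and 0.515% of windows held at least 2 and 7.71% at least 1. The counts of 5 and 2 were the most found in any window of the set, so the shares at those counts are descriptive and not tests. By base content CLDN4 also stood apart, with 5 CG dinucleotides against 30 in CLDN7, 31 in CLDN1 and 24 in CLDN3, and a median of 14 over all windows. Of the 10 genes, 6 had a window, and CDH1, EPCAM, F11R and ST14 had none. In no window of the 6, on either strand, was there GGAATG, the TEAD core (present in 14.0% of all windows). Nor was there AACCGGTT, the GRHL motif (0.134%), or CAAAGTCCA, an HNF4 motif (0.384%). These matches describe letters in short windows and not binding.

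OCLN, the gene of occludin, a tight junction protein that crosses the membrane 4 times (ENSG00000197822, GRCh38 chromosome 5, 69492292 to 69558104, plus strand), had 343, 367 and 388 normalized counts in siYAP and 274, 259.7 and 308 in siNT. The groups did not overlap but lay close, and the log2 fold change was 0.38 ± 0.0872 (standard error; adjusted p = 7.08e-04 in limma). Its relatives MARVELD2, the tricellulin gene, and MARVELD3 rose as well. MARVELD2 had 701 ± 7.05 normalized counts in siYAP and 431 ± 33.7 in siNT (SD, n = 3; log2 0.71), and MARVELD3 was low in both groups (log2 1.56).

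F11R, which encodes the junctional adhesion molecule JAM-A (ENSG00000158769, GRCh38 chromosome 1, 160995211 to 161021348, minus strand), had 664, 618 and 715 normalized counts in siYAP and 398, 332 and 354 in siNT. All siYAP libraries were well above the siNT libraries, and the log2 fold change was 0.88 ± 0.0792 (standard error; adjusted p = 3.35e-09 in limma). CXADR, an immunoglobulin-like receptor of the same junction, moved the opposite way, to 607 ± 29.4 in siYAP against 1289 ± 74.7 in siNT (SD, n = 3; log2 -1.08, limma adjusted p = 1.86e-12). CRB3, a polarity protein of the apical membrane, rose by a log2 of 0.45. Of 7 other tight junction membrane genes measured, 4 rose, 1 fell and 2 were not called.

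TJP1, the gene of the scaffold ZO-1 (ENSG00000104067, GRCh38 chromosome 15, 29699367 to 29968865, minus strand), was the 1 gene of the 10 that fell. It had 7219, 7309 and 7816 normalized counts in siYAP and 8518, 8345 and 8953 in siNT. The groups did not overlap, but the change was small, with means of 7448 ± 322 in siYAP and 8605 ± 313 in siNT (SD, n = 3) and a log2 fold change of -0.21 (standard error 0.0444; limma, adjusted p = 3.67e-04). With equal library totals the log2 fold change was -0.12 (limma, adjusted p = 0.0207). An antisense gene that overlaps TJP1, ENSG00000259523, was low, at a mean of 43.8 in siYAP and 40.3 in siNT. Relative to TJP1 within each library, per kb, F11R was at 0.205, 0.188 and 0.203 in siYAP and 0.104, 0.0886 and 0.0879 in siNT. OCLN was at 0.0791, 0.0837 and 0.0827 of TJP1 in siYAP and 0.0537, 0.0519 and 0.0573 in siNT. For both ratios every siYAP library lay above every siNT library (exact permutation p = 0.1, the smallest possible).

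Other scaffolds of the tight junction split. Of 13 measured, 6 rose, 4 fell and 3 were not called, with a median log2 fold change of 0.29. CGN, cingulin, had 2681 ± 61.3 normalized counts in siYAP and 1403 ± 33.9 in siNT (SD, n = 3; log2 0.93, limma adjusted p = 2.95e-13). PATJ, a multi-PDZ scaffold of the Crumbs complex, had 878 ± 22.4 in siYAP and 378 ± 16.3 in siNT (SD, n = 3; log2 1.21). TJP3, the ZO-3 gene, rose by a log2 of 0.99, while MAGI1, a scaffold with inverted domain order, fell by 0.64. Among 14 polarity genes, 7 rose, 3 fell and 4 were not called, with a median of 0.10. PARD6B (log2 0.58) and LLGL2 (log2 0.57) rose, PARD3B was low (101 ± 17.2 in siYAP and 44.0 ± 11.1 in siNT; SD, n = 3) and rose, and the small GTPase gene CDC42 fell to 1938 ± 64.3 in siYAP against 3475 ± 159 in siNT (SD, n = 3; log2 -0.84).

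EPCAM (ENSG00000119888, GRCh38 chromosome 2, 47345158 to 47387601, plus strand) had 842, 808 and 863 normalized counts in siYAP and 512, 498 and 492 in siNT. Replicates were tight and the groups far apart, and the log2 fold change was 0.74 ± 0.0626 (standard error; adjusted p = 1.21e-09 in limma). Its fold change was smaller than that of its partner CLDN7. The ratio of EPCAM to CLDN7 per kb was 0.611, 0.586 and 0.681 in siYAP and 0.833, 0.739 and 0.820 in siNT (exact permutation p = 0.1, the smallest possible; log2 difference -0.35). Of 8 measured genes that bind or cleave EPCAM, 4 rose and 4 fell. TSPAN8, a tetraspanin found with EPCAM and claudin-7, had 691 ± 15.8 in siYAP and 353 ± 46.8 in siNT (SD, n = 3; log2 0.97). CD44, a hyaluronan receptor, fell by 0.74 on the log2 scale, and ADAM17, a sheddase, fell by 0.42.

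ST14, matriptase (ENSG00000149418, GRCh38 chromosome 11, 130159562 to 130210376, plus strand), was the least abundant of the 10, with 70.7, 66.1 and 73.2 normalized counts in siYAP and 39.8, 53.4 and 64.0 in siNT. The lowest siYAP library was just above the highest siNT library, and the siNT values spread with a coefficient of variation of 23.2%. In siYAP the coefficient of variation was 5.14%, less than the 11.6% that counting alone gives, so the siYAP libraries lay closer than their reads would lead one to count on. Its log2 fold change of 0.44 (standard error 0.178; limma, adjusted p = 0.0414) was the weakest call of the 7, and DESeq2 did not make it (adjusted p = 0.119). The call was lost without any of the 3 siYAP libraries and without siNT replicate 1 or 2. Without siNT replicate 1 the log2 fold change was 0.25, and over all settings the adjusted p ran between 0.0114 and 0.237.

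SPINT1, which encodes HAI-1, the inhibitor that binds matriptase, rose to 963 ± 36.3 normalized counts in siYAP against 515 ± 24.6 in siNT (SD, n = 3; log2 0.90, limma adjusted p = 5.72e-11). Of 7 measured genes of this protease pathway, 2 rose, 4 fell and 1 was not called, with a median of -0.27. The other gene that rose was HGF, hepatocyte growth factor, whose activator HAI-1 also inhibits, near the floor at 14.5 ± 4.71 in siYAP and 1.05 ± 1.05 in siNT (SD, n = 3). PLAU, the urokinase gene, whose product matriptase activates, fell by 1.45 on the log2 scale. F2RL1, the gene of protease-activated receptor PAR2, fell by 0.44, and MET, the receptor of hepatocyte growth factor, by 0.29.

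**Figure D3:**
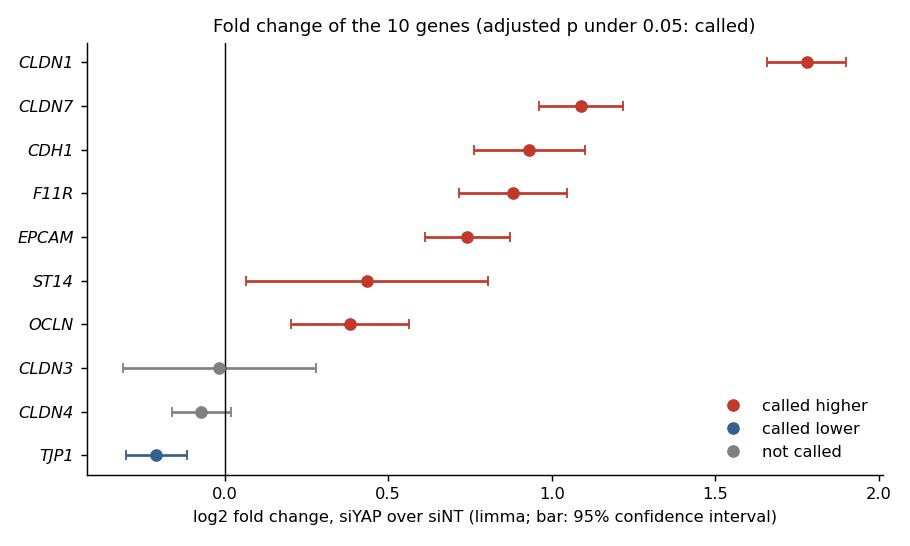
Log2 fold change of each gene, siYAP over siNT (x axis), from limma, with bars for the 95% confidence interval and colours for called higher, called lower and not called. The estimates run between -0.21 for TJP1 and 1.78 for CLDN1, and the interval of ST14 is the widest of the called genes.

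Within a group the replicates of most of these genes lay close. The coefficient of variation was between 2.07% and 9.23% for the 8 genes other than CLDN3 and ST14. It was 15.1% in siYAP and 14.5% in siNT for CLDN3, of which counting alone gives 9.27% in siYAP and 9.97% in siNT. CLDN3 and ST14 were also the least sampled, with 90 to 136 and 38 to 78 reads per library, against 7405 to 8218 for TJP1.

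Levels can be set side by side only per length. In siYAP the order, as normalized count per kb of annotated exon, was CLDN4 (1413), TJP1 (661), CLDN1 (634), CLDN7 (532), EPCAM (333), F11R (131), CLDN3 (86.4), CDH1 (79.1), OCLN (54.1) and ST14 (16.1). In siNT the order on the same scale was CLDN4 (1484), TJP1 (764), CLDN7 (249.96), EPCAM (199), CLDN1 (185), CLDN3 (87.2), F11R (71.4), OCLN (41.5), CDH1 (41.4) and ST14 (12.1). CLDN1 thus stood after TJP1 in siYAP and after EPCAM in siNT. Its range of mean ± SD overlapped that of TJP1 in siYAP (634 ± 37.0 for CLDN1 and 661 ± 28.6 for TJP1, n = 3). The neighbours CLDN3 and CDH1 in siYAP, and CLDN3 with F11R and OCLN with CDH1 in siNT, also overlapped in this way. With the principal transcript as the length, CLDN7 came before CLDN1 in siYAP as well. CDH1 then came before OCLN in siNT (52.3 for CDH1 and 43.6 for OCLN). It also came before CLDN3 in siYAP (99.9 for CDH1 and 86.4 for CLDN3, with overlapping ranges). The order thus depends on which exons are counted.

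Of 6 measured repressors of CDH1, 1 rose, 2 fell and 3 were not called, with a median log2 fold change of -0.01. These counts, and those of the epithelial regulators, are near the shares over all genes (28.6% higher and 28.1% lower). ZEB1 had 1205 ± 50.4 normalized counts in siYAP and 1455 ± 40.0 in siNT (SD, n = 3; log2 -0.27, limma adjusted p = 1.44e-04), and TCF3, the E2A gene, fell by 0.29 on the log2 scale. TCF4, another E protein, rose to 259 ± 15.5 in siYAP against 91.8 ± 4.79 in siNT (SD, n = 3; log2 1.49). The repressors SNAI1, SNAI2 and ZEB2, named after their values were seen, were not called (limma adjusted p = 0.168, 0.317 and 0.0909). Among 12 measured epithelial transcription and splicing regulators, 3 rose, 4 fell and 5 were not called. HNF4A, a liver and gut transcription factor, had 6889 ± 112 in siYAP and 3621 ± 191 in siNT (SD, n = 3; log2 0.93, limma adjusted p = 1.53e-13). FOXA1 (log2 0.71) and CDX2, an intestinal factor (log2 0.57), rose, and FOXA2 fell by 0.52.

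The genes whose change was closest to that of CDH1 were sought among 93 junction and companion genes (mean of 20 or more). The measure was the root mean square difference of log2 values, taken from the siNT mean of each gene, over the 6 libraries. CGN was closest at 0.0856, followed by HNF4A at 0.0964 and SPINT1 at 0.102. F11R was the closest of the other 9 genes of the set, at 0.107. With each gene taken from its own siNT mean, the measure mainly compares log2 fold changes. These were 0.93 for CDH1, CGN and HNF4A, 0.90 for SPINT1 and 0.88 for F11R. It does not show a shared course beyond that. The order of these genes was not tested against replicate spread, and their distances differ little. For CDH1 alone the coefficient of variation was 6.61% in siYAP and 6.12% in siNT.

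**Figure D4:**
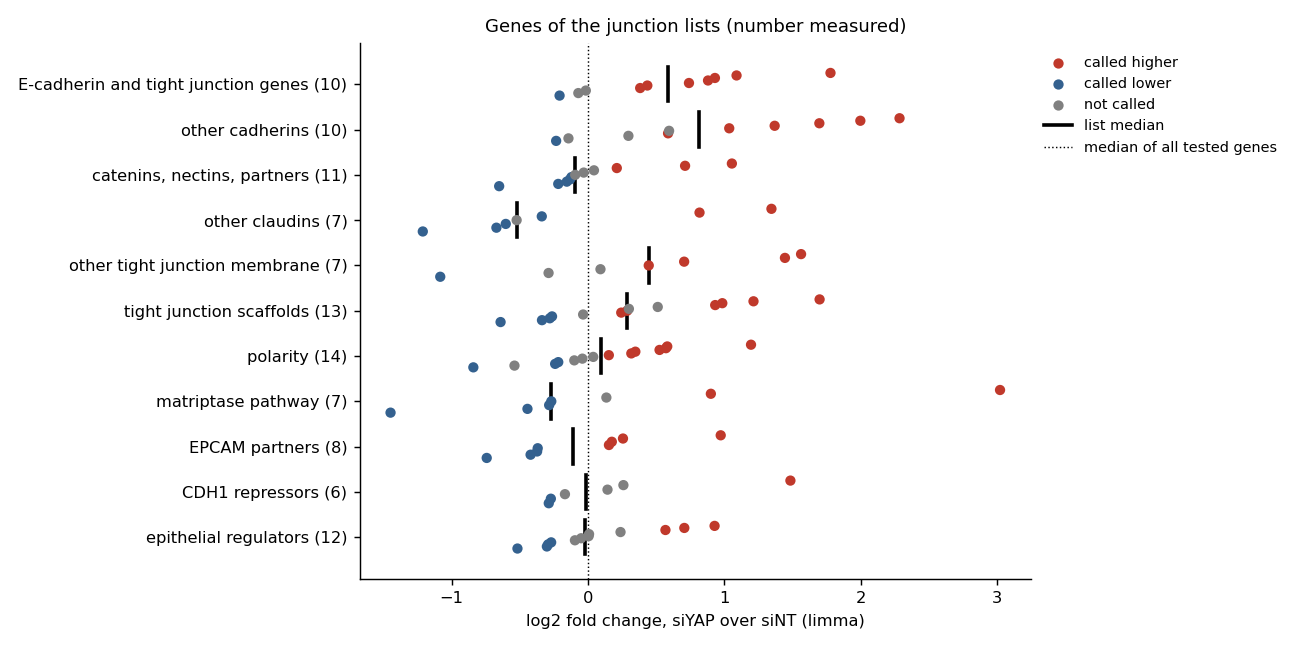
Log2 fold change, siYAP over siNT (x axis), of each measured gene in the set and in 10 companion lists (rows, with the number measured), coloured by call, with a black bar for the list median and a dotted line for the median of all genes tested (0.0036). The set (median 0.59) and the other cadherins (0.82) lie furthest to the right, while the other claudins (-0.52) lie to the left.

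The 3′ UTRs were searched for 3 heptamers, chosen with earlier results of these data known. Among genes with a mean of 50 or more, the 2579 with TTCTTAA had a median log2 fold change of -0.0254, against -0.0062 in the 8824 without it. The median was -0.0442 in the 1806 genes with GAGAGGA and -0.0030 in the 9597 without it, and -0.0176 in the 1122 with GATAAAG and -0.0090 in the 10281 without it. These medians take no account of UTR length and were not tested. In GENCODE 29, CDH1 and OCLN each held 2 copies of TTCTTAA, EPCAM and TJP1 held 1 each, and the other 6 genes none. TJP1 also held 1 copy of GATAAAG, and none of the 10 genes held GAGAGGA. The TTCTTAA sites of CDH1 and TJP1 are shown, with the heptamer in capitals, since these genes share it and changed in opposite directions.

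CDH1, base 200 of the 3′ UTR: ttcgacttatTTCTTAAagcttttttt

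CDH1, base 326 of the 3′ UTR: cttgcagattTTCTTAAggaattttgt

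TJP1, base 676 of the 3′ UTR: taccctcatgTTCTTAAttcttagctc

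CDH1, EPCAM and OCLN, which hold TTCTTAA, were higher in siYAP, and TJP1, which also holds it, was lower. CLDN1, CLDN7, F11R and ST14 also rose and were without it.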

How the data were processed

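Poly(A) RNA-seq libraries were made with a stranded kit, per the labels' protocols. The deposited signal is 1 value per gene and library: the authors' read counts divided by a size factor. FastQC, HISAT2, HTSeq and DESeq2, and the builds hg19 and mm9, are named per the submitters' processing notes. Versions, roles, annotation and strand setting: not given in the sources used here. Dividing each library by the value of 1 read gave whole reads for 100% of values (tolerance 0.01 read).

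Columns were matched to samples by title. Genes were named by Ensembl identifier (16662 of 17211 matched, 16743 with GENCODE 29), which also gave the coordinates and lengths. Values were tested as log2(value + 1) with limma 3.58.1 in R 4.3.3 (trend and robust empirical Bayes, group alone) where 3 or more libraries reached a value of 1, with Benjamini-Hochberg adjustment over 17200 genes. The files hold a normalized unit, so the raw-count test was an alternative: edgeR 4.0.16 and DESeq2 1.42.0 were run on the recovered reads. Others were another pseudocount, filters, scalings, limma without trend, the replicate block and each library left out.

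On simulated counts limma found 20 of 50 genes at a 1.2-fold change, 39 of 50 at 1.5-fold and 50 of 50 at 2-fold, and made 7 false calls among 17128 genes. The simulation assumed the spread among replicates and changed only 50 genes at each size. Its rates may not hold for these libraries, where 56.8% of genes were called. Replicates differed by more than counting noise (chi-square per degree of freedom between 2.75 and 7.50). This sets them apart from repeat sequencing of the same library, but not from separate preparations of the same RNA. The members and companion lists were chosen with earlier results of these data known. From each companion list up to 4 called genes with the largest change and a mean of at least 20 were named.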

Additional observations from a re-analysis of the deposited data

How the results depend on the processing

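Over 16 alternatives the number of genes called lay between 8687 and 9818, against 9767. CDH1, EPCAM, CLDN1, CLDN7, OCLN and F11R stayed called higher, and TJP1 and YAP1 lower, under each of them. TJP1 was smallest with equal library totals (log2 -0.12). ST14 lost its call in limma without trend (log2 0.44, adjusted p = 0.091), in DESeq2 (log2 0.43, adjusted p = 0.119) and without any 1 of 5 libraries, with a log2 between 0.25 and 0.59 when each library was left out. CLDN4 changed sign with equal totals (0.0164) and lay between -0.0983 and -0.0481 when each library was left out. CLDN3 changed sign with upper-quartile factors (0.0026) and equal totals (0.0706), and lay between -0.11 and 0.11 when each library was left out. Genes of the set called lower numbered between 1 and 2 with a library left out, the added gene being CLDN4. Equal totals moved the median of all genes to a log2 of 0.09 and the share of called genes that were higher to 62.0%, against 50.4%. With the principal transcript as the length, an alternative chosen after seeing the data, CLDN10 took 15.8% of the claudin level in siYAP and 21.8% in siNT, against 6.10% in siYAP and 8.99% in siNT by annotated exons, and the direction of the CLDN1, CLDN4, CLDN7 and CDH1 shares held. Replicate numbers did not pair the libraries: deviations of same-numbered libraries correlated at -0.338, -0.0083 and -0.0685. Those of differently numbered libraries correlated between -0.269 (siYAP 3 with siNT 2) and 0.317 (siYAP 3 with siNT 1), and no fit took account of this. A fit with the replicate block called 9141 genes and the same 8 of the 10, with CDH1 at a log2 of 0.93. Depth limits CLDN3 and ST14, with 90 to 136 and 38 to 78 reads per library.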
